A study of Rattus norvegicus with 12 samples.

Results

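Natriuretic peptides are hormones that the heart releases when its muscle is stretched or grows. The 9 genes described here encode the 3 peptide precursors (Nppa, Nppb, Nppc), the 3 receptors (Npr1, Npr2, Npr3) and 3 proteases that process or degrade the peptides (Corin, Furin, Mme). They were chosen by name, and all 9 have a row among the 18469 genes of the deposited tables. RNA was sequenced from neonatal rat ventricular myocytes (NRVMs) of Sprague-Dawley rats, primary heart muscle cells grown in a medium with insulin, transferrin and selenium, in 12 libraries of 4 groups with 3 replicates each. The siNeg group was transfected with a negative control siRNA, and the siNeg.PE group with the same siRNA and then, 12 h later, with phenylephrine (PE), an α1-adrenergic agonist that makes cardiomyocytes grow, for 36 h. The siSlc25a26 and siSlc25a26.PE groups were transfected with an siRNA against Slc25a26, the mitochondrial carrier of S-adenosylmethionine, without and with the same PE treatment. All 4 groups had therefore been transfected, and none was left without an siRNA. NRVMs were prepared from hearts of newborn pups and freed of most fibroblasts on a density gradient, so the cultures are enriched for myocytes and are not pure. The study's methods call the 3 samples of a group independent biological replicates, but they describe another siRNA and other times of transfection and PE.

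The pro-peptides of Nppa and Nppb give atrial and B-type natriuretic peptide (ANP and BNP). Corin, a protease anchored in the myocyte membrane, cuts pro-ANP, and furin, a protease of the secretory pathway, cuts pro-BNP and pro-CNP. ANP and BNP act through the guanylyl cyclase receptor NPR-A (Npr1), CNP (Nppc) acts through NPR-B (Npr2), and both receptors raise cyclic GMP, which relaxes vessels, promotes salt excretion and restrains myocyte growth. NPR-C (Npr3) takes up the peptides and clears them, and neprilysin (Mme) degrades them. In the ventricle, Nppa and Nppb are high before birth, low in the healthy adult and high again in the growing or failing heart, so both are standard markers of hypertrophy.

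Nppa and Nppb are direct neighbours on rat chromosome 5, with 0 annotated genes between them. Their promoter sequences are shown because these were the members that rose with PE. The sequences come from RefSeq on assembly GRCr8, plus strand, whereas the deposited values were made on Rnor_6.0. Promoter windows of 250 bases before the start were found for 7 of the 9 members, all but Npr2 and Furin. Capitals mark TGATAA or AGATAA (the GATA factor motif), TATAAA (the letters of a TATA box) and CATTCC (the letters of the M-CAT element bound by TEAD factors). Each was sought on either strand and at any place in the window. The Nppb stretch of 197 bases ends where the earliest transcript model begins, 53 bases before the start that the promoter table uses for Nppb, and the Nppa stretch ends at the table's start.
Nppb, chr5:163699758-163699954: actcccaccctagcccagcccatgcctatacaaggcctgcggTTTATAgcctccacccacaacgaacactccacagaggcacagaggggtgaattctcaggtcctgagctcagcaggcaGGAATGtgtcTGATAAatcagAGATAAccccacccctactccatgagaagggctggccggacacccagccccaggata
Nppa, chr5:163711934-163712183: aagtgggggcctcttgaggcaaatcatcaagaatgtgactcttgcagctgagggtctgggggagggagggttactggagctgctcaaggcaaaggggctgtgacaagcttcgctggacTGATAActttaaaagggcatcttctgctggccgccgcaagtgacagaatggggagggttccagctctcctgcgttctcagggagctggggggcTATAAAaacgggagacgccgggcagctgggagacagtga

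Counted back from the last base printed, Nppb held the GATA motif on the plus strand at bases 68 to 63 and 57 to 52. On the opposite strand it held CATTCC at bases 78 to 73 and TATAAA at bases 155 to 150. Nppa held the GATA motif at bases 132 to 127 and TATAAA at bases 39 to 34, counted in the same way. Of the 7 members with a window, Nppa and Nppb were the 2 with a GATA motif, which was present in 16.9% of all 33469 promoter windows of this length. Nppb was the 1 member with CATTCC, present in 12.1% of all windows. TATAAA was found in Nppa, Nppb (on the opposite strand) and Nppc, and in 12.9% of all windows. The T-box motif AGGTGT, the AP-1 motif TGANTCA, the Nkx2-5 motif TNAAGTG, the CRE core TGACG, the CArG box and the MEF2 site were not in the 7 windows, against 11.6%, 6.34%, 9.89%, 18.2%, 1.5% and 1.68% of all windows. A match is a string of letters in a window and says nothing of binding in these cells.

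The libraries held 24770972 to 28709049 estimated counts each, and the values in CPM are counts scaled to a common library size by TMM over the 12 libraries. Genes past 1.5-fold with an adjusted p under 0.05 (edgeR quasi-likelihood test, adjusted by Benjamini-Hochberg over all genes tested) are said to be called. The targeted gene, Slc25a26, was at 31.4 ± 2.0 CPM (SD, n = 3) in siNeg and 15.1 ± 0.611 CPM in siSlc25a26, and it fell by 1.08 on the log2 scale (edgeR, adjusted p = 1.08e-05). With PE it was at 102 ± 14.1 CPM after siNeg, and the libraries labelled siSlc25a26.PE held 102 ± 3.69 CPM, a log2 difference of -0.0062 (95% interval -0.20 to 0.19, edgeR, adjusted p = 0.969), so a lower level was not seen there and each direction drawn from those 3 libraries rests on their label. As a check of the labelled cell type, the 10 cardiomyocyte markers summed to 29922 to 50242 CPM in every library, and none of the defining markers Myh6, Myh7 and Tnnt2 was at 3 counts or fewer. In bulk RNA, fewer cells of a type and less RNA per cell cannot be told apart.

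The rank of the members by FPKM, which divides by gene length and so allows genes to be compared, changed with PE. In siNeg the order was Nppa (167 ± 13.3 FPKM), Furin (79.2 ± 3.33), Nppb (24.4 ± 5.54), Corin (19.4 ± 3.20), Npr2 (11.2 ± 0.330), Npr1 (3.90 ± 0.346), Mme (2.14 ± 0.320), Npr3 (1.56 ± 0.266) and Nppc (0.23 ± 0.105; SD, n = 3 throughout). Nppb and Corin overlapped between libraries, and the other neighbours in this order did not. In siNeg.PE the order began with Nppa (4005 ± 626 FPKM) and Nppb (977 ± 361), followed by Furin (70.3 ± 0.656) and Corin (13.6 ± 3.20), and no neighbours overlapped. In siSlc25a26 Nppa (386 ± 99.5 FPKM) stood above Furin (104 ± 3.67) and Nppb (100.1 ± 23.9), and the last pair overlapped. In siSlc25a26.PE Nppa (7804 ± 307 FPKM) and Nppb (3547 ± 137) stood above Furin (86.4 ± 4.83), Corin (6.11 ± 0.549) overlapped with Npr2 (5.84 ± 0.162), and Mme (1.41 ± 0.266) overlapped with Npr3 (0.823 ± 0.431). Among all 18469 genes, Nppa was ranked between 514 and 581 by FPKM in the siNeg libraries, 7 to 8 in siNeg.PE, 206 to 336 in siSlc25a26 and 2 in all 3 siSlc25a26.PE libraries.

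**Figure D1:**
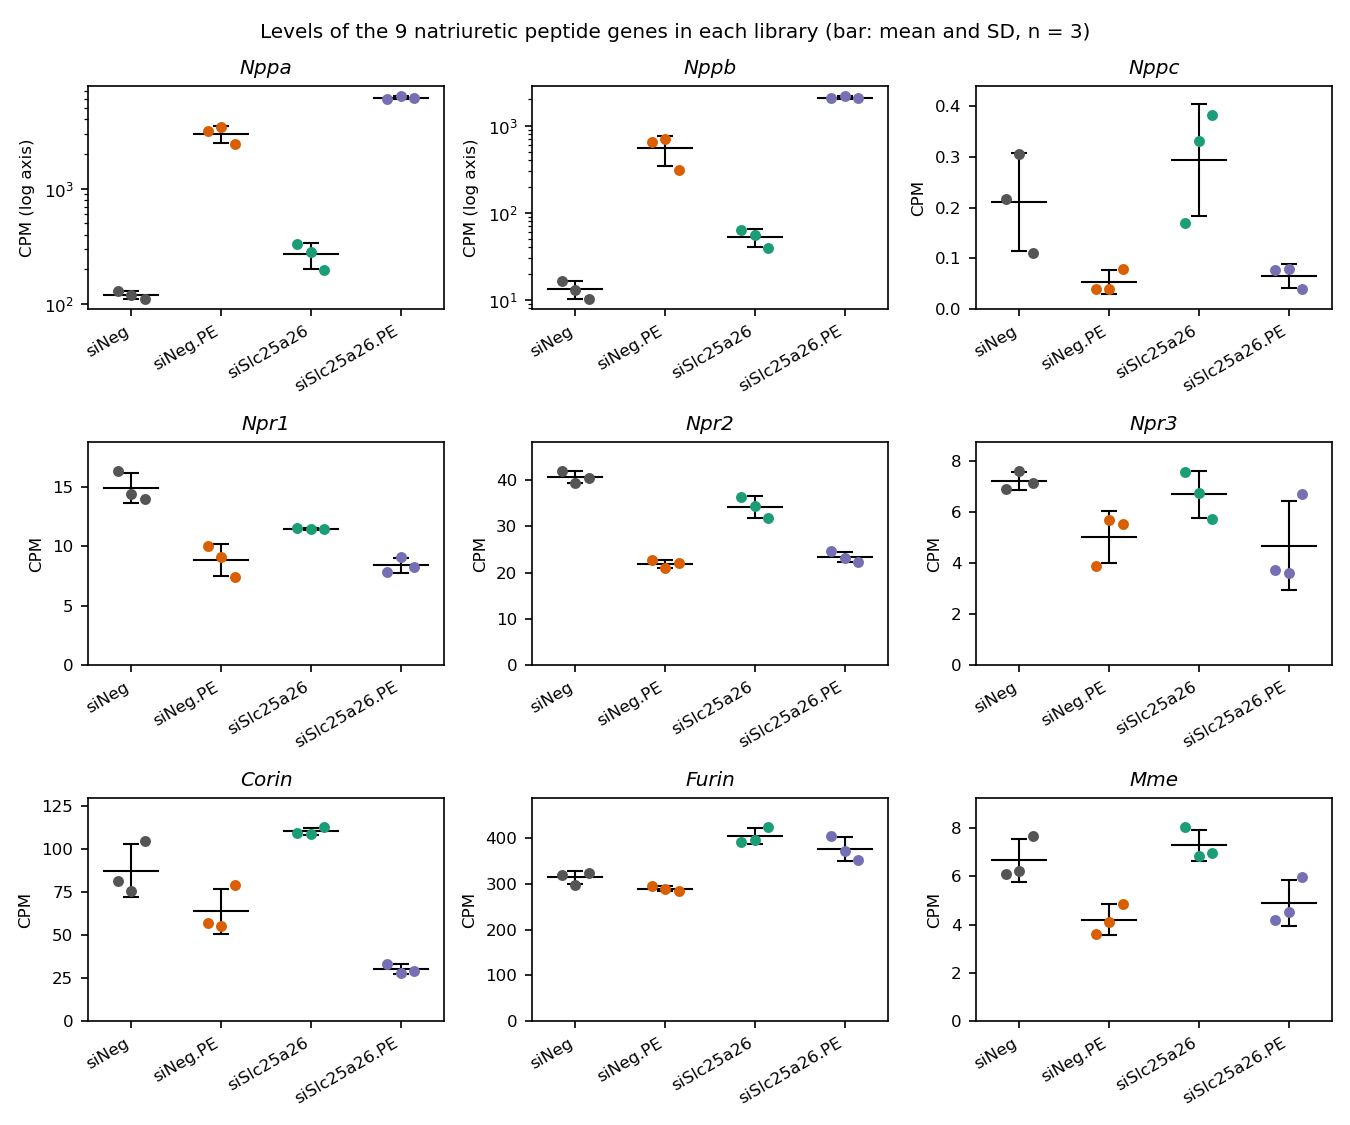
TMM-scaled CPM of the 9 members (vertical axes, logarithmic for Nppa and Nppb) in the 3 libraries of each group (points), with the mean and SD as bars. The siSlc25a26.PE libraries of Nppa and Nppb lie above those of every other group, and the siSlc25a26.PE libraries of Corin lie between 27.8 and 33.3 CPM, below all other libraries.

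PE raised both peptide genes in the siNeg cells and lowered 3 of the other members. Nppa rose 24.7-fold and Nppb 41.3-fold, while the cyclase receptors Npr1 and Npr2 and the degrading protease Mme fell. Of the 8 members tested, 2 were called higher, against 12.4% of all tested genes, and 3 were called lower, against 8.24%. Nppc was too low to be tested.

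Nppa was at 129.8, 120.0 and 111 CPM in siNeg and at 3174, 3409 and 2417 CPM in siNeg.PE. Its log2 fold change was 4.63 (95% interval 4.36 to 4.90, edgeR adjusted p = 2.22e-06). The lowest siNeg.PE library lay far above the highest siNeg library, and Nppa took 0.244% to 0.335% of all counts in siNeg.PE against 0.0114% to 0.0133% in siNeg. Nppb was at 16.4, 13.0 and 10.4 CPM in siNeg and at 657, 698 and 311 CPM in siNeg.PE. Its log2 fold change was 5.37 (95% interval 4.71 to 6.03, edgeR adjusted p = 2.04e-05). The groups did not overlap, and replicate 3 of siNeg.PE held less than the other 2 libraries of its group for both genes. The ratio of Nppb to Nppa by FPKM was 0.167, 0.143 and 0.124 in siNeg and 0.273, 0.271 and 0.170 in siNeg.PE, so it rose 1.62-fold with PE and the groups were close but did not overlap (two-sided exact permutation p = 0.1, the smallest that 3 against 3 libraries allow, adjusted p = 0.2 over 8 comparisons of ratios). The 3rd peptide gene, Nppc, mainly made by endothelial cells, had 6, 8 and 3 counts in siNeg and 1, 1 and 2 counts in siNeg.PE, at or under the floor of 3 counts with PE, and was not called in the test without a filter on low counts (edgeR adjusted p = 0.0655).

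Npr1, the receptor of ANP and BNP, was at 16.4, 14.4 and 14.0 CPM in siNeg and 10.1, 9.10 and 7.43 CPM in siNeg.PE, and it fell by 0.76 on the log2 scale (SE 0.127, edgeR adjusted p = 0.00183). Npr2, the CNP receptor, was at 41.9, 39.4 and 40.5 CPM in siNeg and 22.7, 20.9 and 22.2 CPM in siNeg.PE, and it fell by 0.90 (SE 0.0665, edgeR adjusted p = 3.90e-05). For both receptors every siNeg.PE library was below every siNeg library. Npr3, the clearance receptor, was at 6.89, 7.59 and 7.12 CPM in siNeg and 3.86, 5.68 and 5.51 CPM in siNeg.PE, a log2 difference of -0.53 (SE 0.160, edgeR adjusted p = 0.0244) that stayed within the 1.5-fold line. Npr3 was the member whose FPKM and counts went together least: the length implied by their ratio varied 1.70-fold between libraries, against at most 9.76% for the other members. On the log2(FPKM + 0.1) scale its difference was -0.93 and was called (limma adjusted p = 0.00456). The ratio of Npr3 to Npr1 by FPKM was 0.397 in siNeg and 0.349 in siNeg.PE (geometric means), with overlapping libraries (exact permutation p = 0.6).

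Mme, which encodes neprilysin, was at 6.09, 6.22 and 7.68 CPM in siNeg and 3.62, 4.12 and 4.87 CPM in siNeg.PE, and it fell by 0.67 on the log2 scale (SE 0.157, edgeR adjusted p = 0.00842). Its call lay close to the fold line: without siNeg replicate 3 the value was -0.56, and without siNeg.PE replicate 1 it was -0.57, both within 1.5-fold. Corin was at 81.5, 75.8 and 104.8 CPM in siNeg and 57.3, 55.1 and 78.9 CPM in siNeg.PE, a log2 difference of -0.46 (SE 0.164, edgeR adjusted p = 0.0445) that was not called, and the groups overlapped. Replicate 3 was the highest library for Corin in both groups. Without siNeg.PE replicate 3 the difference was -0.66 and was called (edgeR adjusted p = 0.00588), as was Npr3 (-0.61), which was also called without siNeg.PE replicate 2 (-0.62). Furin moved least, from 320.9, 298.7 and 325 CPM to 295, 289 and 286 CPM, a log2 difference of -0.13 (SE 0.0515, edgeR adjusted p = 0.0661).

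Part of the fibroblast list moved with these members. The 10 fibroblast markers summed to 25092 to 27864 CPM in siNeg and 13360 to 13946 CPM in siNeg.PE, and 6 of 10, among them Col1a1 and Col3a1, were called lower, whereas Pdgfra (0.37), Dcn (0.27), Postn (0.14) and Lum (0.04) had log2 differences above 0 and were not called. The 8 macrophage and other immune markers summed to 107 to 128 CPM and 59.1 to 68.6 CPM, and 5 of the 7 tested were called lower. Of the 7 mural markers, which summed to 2338 to 2551 CPM and 1370 to 1708 CPM, Acta2, Myh11 and Pdgfrb were called lower and Cnn1 and Rgs5 higher. The 7 endothelial markers (Pecam1 and Cdh5 under 1 CPM in each library) summed to 27.1 to 29.4 CPM in siNeg and 23.0 to 25.1 CPM in siNeg.PE. Of the 7, 5 had log2 differences below 0 and 2 above. Kdr went from a mean of 12.1 to 5.77 CPM and was called lower, as was Tie1. Tek went from a mean of 12.4 to 15.7 CPM and was not called. The 10 cardiomyocyte markers summed to 30565 to 32633 CPM and 41513 to 42673 CPM, with 4 called higher and Ckm called lower. No defining marker of these lists was at 3 counts or fewer in all libraries of a group. The part of these cells in the lower Npr1, Npr2 and Mme was not tested. The 8 atrial markers were of interest because Nppa is an atrial gene. They summed to 231 to 262 CPM in siNeg and 288 to 378 CPM in siNeg.PE. Of the 6 tested, 1 had a log2 difference above 0 and 5 lay below 0. The 1 above was Myl4 (a mean of 99.4 CPM in siNeg and 250 CPM in siNeg.PE), which was called higher. Of the 5 below, 3 had an adjusted p under 0.05, and Gja5 (87.6 and 38.7 CPM) was called lower. Bmp10 and Kcna5 of that list averaged under 0.1 CPM in every group.

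In the cells transfected with siSlc25a26, PE raised both peptide genes again, and Corin fell with them. Nppa rose 22.9-fold, Nppb 40.1-fold, and Corin fell 3.64-fold. Of the 8 tested members, 2 were called higher, against 10.1% of all tested genes, and 1 was called lower, against 10.4%. The receptors and Mme lay below their levels without PE but within the 1.5-fold line.

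Nppa was at 331, 284 and 196 CPM in siSlc25a26 and at 5954, 6332 and 6130.0 CPM in siSlc25a26.PE, a log2 fold change of 4.51 (95% interval 4.17 to 4.86, edgeR adjusted p = 1.99e-07). Nppb was at 63.5, 56.0 and 39.2 CPM and at 2053, 2183 and 2081 CPM, a log2 fold change of 5.32 (95% interval 5.01 to 5.64, edgeR adjusted p = 6.48e-08). The siSlc25a26.PE libraries were close to each other for both genes, within 6.35% and 6.34% from the lowest to the highest, and stood apart from all siSlc25a26 libraries. The ratio of Nppb to Nppa by FPKM was 0.254, 0.261 and 0.265 in siSlc25a26 and 0.457, 0.457 and 0.450 in siSlc25a26.PE, a 1.75-fold increase without overlap (exact permutation p = 0.1). Nppc had 5, 10 and 11 counts in siSlc25a26 and 2, 2 and 1 counts in siSlc25a26.PE, and in the test without a filter it passed (edgeR adjusted p = 0.0272), although the PE libraries were under the floor of 3 counts.

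Corin was at 109.5, 108.9 and 113 CPM in siSlc25a26 and at 33.3, 27.8 and 29.3 CPM in siSlc25a26.PE, and it fell by 1.86 on the log2 scale (95% interval -2.0 to -1.72, edgeR adjusted p = 1.99e-07). The lowest siSlc25a26 library held more than 3 times the highest siSlc25a26.PE library. Npr1 was at 11.6, 11.4 and 11.5 CPM and at 7.84, 9.10 and 8.31 CPM, a log2 difference of -0.44 (SE 0.0920, edgeR adjusted p = 0.00351), and Npr2 was at 36.4, 34.3 and 31.8 CPM and at 24.7, 23.2 and 22.4 CPM, a difference of -0.54 (SE 0.0730, edgeR adjusted p = 0.000310). Both receptors had groups that did not overlap, and both fell short of the fold line. Mme was at 8.04, 6.85 and 6.95 CPM and at 4.17, 4.53 and 5.99 CPM, a log2 difference of -0.56 (SE 0.157, edgeR adjusted p = 0.0150), also within 1.5-fold. Npr3 was at 7.56, 6.75 and 5.73 CPM and at 3.71, 3.62 and 6.69 CPM, with overlap through replicate 3 of siSlc25a26.PE (log2 difference -0.50, edgeR adjusted p = 0.104). Without that library Npr3 (-0.86, edgeR adjusted p = 0.00169) and Mme (-0.74, edgeR adjusted p = 0.00181) were called lower. Without siSlc25a26 replicate 3, Npr2 (-0.59) and Mme (-0.59) were called lower, and without siSlc25a26 replicate 2, Mme (-0.60) was. Furin was at 393, 397 and 425 CPM and at 405, 373 and 353 CPM, with overlap and a log2 difference of -0.09 (edgeR adjusted p = 0.221).

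The markers moved with this comparison as well. From siSlc25a26 to siSlc25a26.PE the cardiomyocyte sum went from 29922 to 34162 CPM to 46491 to 50242 CPM, with 4 of 10 called higher and 1 lower, the fibroblast sum from 14657 to 16646 CPM to 10429 to 11540 CPM, with 1 of 10 called lower, and the immune sum from 58.9 to 68.3 CPM to 41.2 to 49.0 CPM, with 1 of 7 called lower. The mural sum went from 1349 to 1549 CPM to 1793 to 1875 CPM, with Cnn1, Cspg4 and Rgs5 called higher, and of the endothelial markers Tek was called higher and Kdr lower. The 15 interferon response genes went from 9362 to 10150.1 CPM to 5642 to 6227 CPM, with 10 called lower and 1 higher. Of the cardiomyocyte markers beside Corin, a myocyte gene, Actn2, Myh7, Myl2 and Ttn were called higher, Ckm was called lower (a mean of 921 CPM in siSlc25a26 and 549 CPM in siSlc25a26.PE), and Pln went from 3364 to 2329 CPM within the fold line (edgeR adjusted p = 0.000893). The part of any of these in the fall of Corin was not tested.

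**Figure D2:**
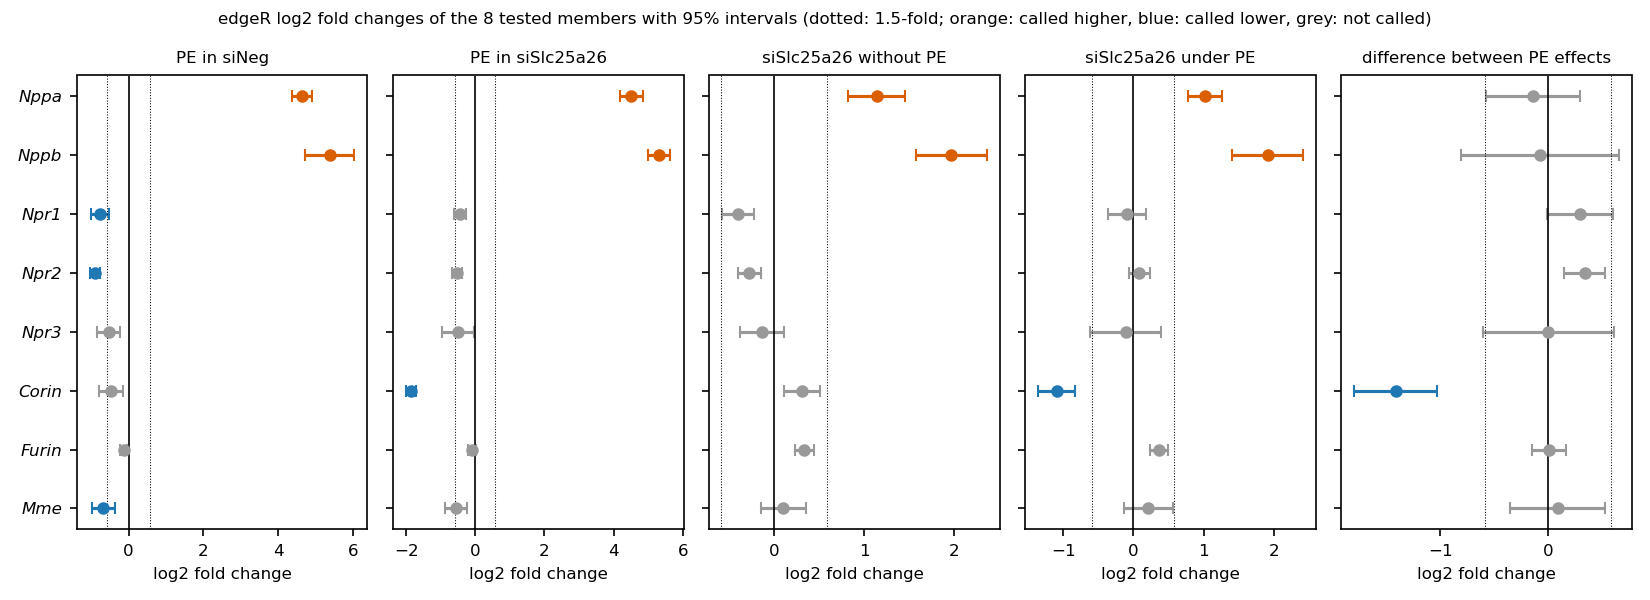
Log2 fold changes (horizontal axes, scaled separately in each panel) of the 8 tested members in the 5 comparisons, with 95% intervals. Nppa and Nppb lie right of the 1.5-fold line in the first 4 panels, and Corin is called lower in the panels for PE in siSlc25a26, siSlc25a26 under PE and the difference between PE effects.

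The siRNA against Slc25a26 alone raised the peptide genes. Without PE, Nppa was 2.21-fold and Nppb 3.91-fold higher in siSlc25a26 than in siNeg, and Furin and Corin lay slightly higher and Npr1 and Npr2 slightly lower, within the 1.5-fold line. Of the 8 tested members 2 were called higher, against 8.92% of all tested genes. No member was called lower, against 7.20% of all tested genes. By DESeq2 and by limma-voom the same number, 2 members, were called in all, against 2064 and 2286 of all 13829 tested genes. Of the 8, 6 had an unadjusted p under 0.05, and 6221 of all 13829 tested genes passed the stricter adjusted p under 0.05.

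The log2 fold change of Nppa was 1.14 (95% interval 0.83 to 1.46, edgeR adjusted p = 0.000562), and every siSlc25a26 library (196 CPM and more) was above every siNeg library (129.8 CPM and less). For Nppb it was 1.97 (95% interval 1.57 to 2.36, edgeR adjusted p = 8.74e-05), with 39.2 CPM in the lowest siSlc25a26 library and 16.4 CPM in the highest siNeg library. The ratio of Nppb to Nppa was 1.81-fold higher in siSlc25a26 than in siNeg, without overlap (exact permutation p = 0.1). Furin differed by 0.34 on the log2 scale (SE 0.0537, edgeR adjusted p = 0.00107), Corin by 0.31 (SE 0.101, edgeR adjusted p = 0.0327), Npr1 by -0.40 (SE 0.0900, edgeR adjusted p = 0.00661) and Npr2 by -0.27 (SE 0.0667, edgeR adjusted p = 0.00952). These 4 genes passed the adjusted p and not the fold line, and their groups did not overlap. How many of all genes lack overlap was not counted, in this or the other comparisons. Npr3 (-0.13, 95% interval -0.38 to 0.11) and Mme (0.10, 95% interval -0.15 to 0.35) overlapped between groups.

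Fibroblast, immune and mural markers and an interferon response also moved with this comparison. The fibroblast markers summed to 14657 to 16646 CPM in siSlc25a26 against 25092 to 27864 CPM in siNeg, with 7 of 10 called lower. Tcf21 went the other way, from a mean of 35.2 CPM in siNeg to 47.3 CPM in siSlc25a26. It passed the adjusted p and not the fold line. The immune markers summed to 58.9 to 68.3 CPM against 107 to 128 CPM, with 4 of 7 called lower. The mural markers summed to 1349 to 1549 CPM against 2338 to 2551 CPM, with Acta2, Cnn1 and Myh11 called lower, and Tie1 was the 1 endothelial marker called, lower in siSlc25a26. The 15 interferon response genes summed to 9362 to 10150.1 CPM against 256 to 288 CPM, and all 14 tested were called higher. Their part in the levels of Nppa and Nppb was not tested. The sum of the cardiomyocyte markers overlapped between these groups (29922 to 34162 CPM against 30565 to 32633 CPM), while Myh6 was called lower (-0.66) and, by adjusted p alone, 4 of 10 were lower and 1 was higher.

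Under PE the peptide genes were higher still in the libraries labelled siSlc25a26.PE than in siNeg.PE, and Corin was lower. Nppa was 2.03-fold and Nppb 3.76-fold higher, and Corin was 2.13-fold lower. Of the 8 tested members 2 were called higher, against 7.71% of all tested genes, and 1 was called lower, against 8.10%. The log2 fold change was 1.02 for Nppa (95% interval 0.78 to 1.26, edgeR adjusted p = 0.000259), 1.91 for Nppb (95% interval 1.41 to 2.41, edgeR adjusted p = 0.000493) and -1.09 for Corin (95% interval -1.35 to -0.82, edgeR adjusted p = 0.000325). For all 3 genes the groups did not overlap: the lowest siSlc25a26.PE library held 5954 CPM of Nppa against 3409 CPM in the highest siNeg.PE library, 2053 against 698 CPM of Nppb, and the highest held 33.3 CPM of Corin against 55.1 CPM in the lowest siNeg.PE library. Furin lay 0.37 higher (SE 0.0639, edgeR adjusted p = 0.00199), without overlap and within the fold line. Npr1 (-0.09, 95% interval -0.35 to 0.18), Npr2 (0.08, 95% interval -0.07 to 0.24), Npr3 (-0.11, 95% interval -0.61 to 0.40) and Mme (0.21, 95% interval -0.14 to 0.57) overlapped between the groups. The ratio of Nppb to Nppa was 1.95-fold higher, without overlap (exact permutation p = 0.1).

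The interferon response genes moved here too, with sums of 5642 to 6227 CPM in siSlc25a26.PE against 193 to 214 CPM in siNeg.PE and 14 of 15 called higher. The cardiomyocyte markers summed to 46491 to 50242 CPM against 41513 to 42673 CPM, with Ckm called lower and 0 called higher, the fibroblast markers to 10429 to 11540 CPM against 13360 to 13946 CPM, with 4 of 10 called lower and Tcf21 higher, the mural markers to 1793 to 1875 CPM against 1370 to 1708 CPM, with Cspg4 called higher and Myh11 and Rgs5 lower, and the atrial markers to 222 to 235 CPM against 288 to 378 CPM. Their part in the changes of Nppa, Nppb and Corin was not tested. The atrial markers Myl4 and Myl7 were called lower while Nppa was higher.

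**Figure D3:**
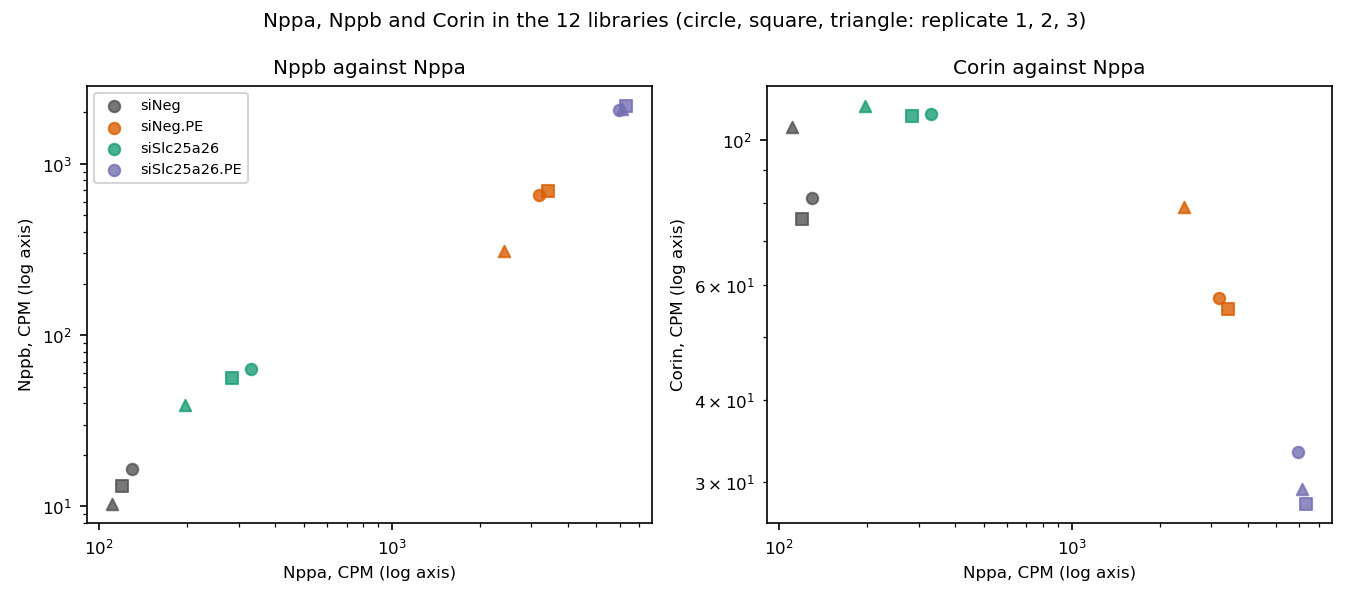
Nppb against Nppa (left) and Corin against Nppa (right), both axes in CPM and logarithmic, with 1 point per library. The 4 groups separate along Nppa, and in siSlc25a26.PE the highest Nppa and Nppb levels of 6332 and 2183 CPM go with the lowest Corin level of 27.8 CPM.

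The effect of PE differed between the siRNAs for Corin. The test of the difference between the PE effects, fitted over all 12 libraries, called 0 members higher, against 2.18% of all tested genes, and 1 of 8 lower, against 3.34%. By DESeq2 and by limma-voom 1 member was called, against 793 and 741 of all 14097 tested genes. Of the 8, 2 had an unadjusted p under 0.05, and 1581 of all 14097 tested genes passed the stricter adjusted p under 0.05. Corin fell 2.67-fold more with PE in siSlc25a26 than in siNeg, a log2 difference of -1.42 (95% interval -1.80 to -1.03, edgeR adjusted p = 0.000996). Npr2 had a smaller drop with PE in siSlc25a26, by 0.34 on the log2 scale (SE 0.0956, edgeR adjusted p = 0.0377), within the fold line. A difference between the PE effects was not seen for Nppa (-0.14, 95% interval -0.58 to 0.30) or Nppb (-0.07, 95% interval -0.80 to 0.66), and the interval for Nppb still allows a 1.58-fold difference up and a 0.573-fold difference down. Npr1 (0.30, edgeR adjusted p = 0.252), Npr3, Furin and Mme were not called. In the same test 0 of 10 cardiomyocyte markers were called, 1 of 10 fibroblast markers (Fn1), 3 of 7 mural markers (Acta2, Cnn1 and Cspg4) and 2 of 7 immune markers (Csf1r and C1qa) were called higher, and 5 of 15 interferon response genes and the atrial marker Gja5 lower. Their part in the difference for Corin was not tested.

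Genes downstream of the receptors were described from a list of 34 genes of cyclic GMP signalling and of peptide clearance, of which 33 are in the tables and 27 were tested. With PE in siNeg, 6 were called higher and 6 lower, against 12.4% and 8.24% of all tested genes. The median log2 fold change was 0.10 against 0.00 for all tested genes, and on the log2(FPKM + 1) scale 3 were called in all. Rgs2, a G-protein regulator that cyclic GMP-dependent kinase acts on, rose from 21.03 to 22.9 CPM to 45.0 to 54.8 CPM (log2 fold change 1.16, edgeR adjusted p = 4.30e-05). The cyclic GMP-dependent kinase Prkg1 rose from 9.24 to 14.4 CPM to 18.1 to 25.8 CPM (0.96, edgeR adjusted p = 0.00369), and the phosphodiesterase Pde3b from 5.44 to 6.06 CPM to 9.83 to 11.5 CPM (0.90, edgeR adjusted p = 0.000437). Dpp4, a membrane peptidase that trims BNP, fell by 1.17, the myosin light chain kinase Mylk fell by 0.94 and the cation channel Trpc6 fell by 0.91 on the log2 scale (edgeR adjusted p = 0.000516, 3.08e-05 and 0.00311).

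With PE in siSlc25a26 3 of the 27 were called higher and 2 lower, against 10.1% and 10.4% of all tested genes, with a median of 0.22 against -0.0034. Rgs2 (1.13), Pde3b (0.74) and the proprotein convertase Pcsk6 (0.66) were called higher, and Dpp4 (-0.98) and the convertase Pcsk5 (-0.89) lower. The Dpp4 call was lost when any of 5 of the 6 libraries was left out and by DESeq2 (adjusted p = 0.0910). Without PE, 1 was called higher in siSlc25a26 and 5 lower, against 8.92% and 7.20% of all tested genes. Under PE, 1 was called higher and 3 lower, against 7.71% and 8.10%, with medians of -0.07 in both comparisons. These counts depended on the fit: on the log2(FPKM + 1) scale 1 gene was called without PE and 0 under PE, and without siSlc25a26 replicate 2 the count without PE was 3. Dpp4 lay at 4.17 to 5.11 CPM in siNeg and 0.660 to 1.29 CPM in siSlc25a26, -2.34 on the log2 scale (edgeR adjusted p = 6.81e-05), and at 2.07 to 2.22 CPM in siNeg.PE against 0.429 to 0.541 CPM in siSlc25a26.PE (-2.15, edgeR adjusted p = 0.000138). Pcsk5 fell in both comparisons (-0.67 and -0.85, edgeR adjusted p = 0.00556 and 0.000676), and without siSlc25a26 replicate 2 its value without PE was -0.51 and within the fold line. Pcsk6, which activates corin, fell without PE from 54.8 to 61.9 CPM to 35.2 to 36.2 CPM (-0.73, edgeR adjusted p = 2.70e-05), as did Mrvi1, a substrate of the cyclic GMP-dependent kinase (-0.68), and Trpc6 (-0.60), and Pde10a fell under PE (-0.77). Trpc6 lay within the fold line without siNeg replicate 1 (-0.53), without siSlc25a26 replicate 2 (-0.54), with all 12 libraries in one fit (-0.58) and on both FPKM scales (-0.33 with FPKM + 1 and -0.51 with FPKM + 0.1), and Mrvi1 and Pcsk5 did with FPKM + 1 (-0.39 and -0.44). The cyclic GMP phosphodiesterase Pde9a was higher in both (0.87 and 0.87, edgeR adjusted p = 0.0227 and 0.0481), at under 2.3 CPM in every library, and lost its call by DESeq2 (adjusted p = 0.0506 and 0.0814). It also lost it without siSlc25a26 replicate 2 or siNeg replicate 2 or 3 in the first comparison, and without any of 5 of the 6 libraries in the second. Of the 27, 0 were called for a difference between the PE effects by edgeR, DESeq2 or limma-voom. By edgeR 2.18% of all tested genes were called higher and 3.34% lower. In the list 6 had an unadjusted p under 0.05, and 1581 of all 14097 tested genes passed the stricter adjusted p under 0.05. Without siNeg.PE replicate 1, 1 was called by edgeR.

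Factors known to regulate Nppa and Nppb were described from a list of 38 genes, all of them tested. With PE in siNeg 5 were called higher and 1 lower, against 12.4% and 8.24% of all tested genes. The median log2 fold change was 0.01 against 0.00 for all tested genes. The immediate early gene Fos rose from 7.70 to 10.5 CPM to 18.8 to 20.1 CPM (1.09, edgeR adjusted p = 0.000260). Tbx20, a cardiac T-box factor, rose from 91.8 to 125 CPM to 193 to 241 CPM (1.05, edgeR adjusted p = 0.000356), the SRF co-factor Myocd from 29.8 to 36.0 CPM to 56.4 to 63.9 CPM (0.86, edgeR adjusted p = 0.000150) and the M-CAT binding factor Tead4 from 5.38 to 7.36 CPM to 10.7 to 10.98 CPM (0.77, edgeR adjusted p = 0.00191). Nfatc2, a calcineurin-dependent factor, fell by 1.01 (edgeR adjusted p = 0.000108). Fosl1 was higher by 0.63 (edgeR adjusted p = 0.0393), a call lost when any of 5 of the 6 libraries was left out.

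With PE in siSlc25a26 9 were called higher and 4 lower, against 10.1% and 10.4% of all tested genes. The median was -0.0088 against -0.0034, and 7 were called in all on the log2(FPKM + 1) scale. Myocd (1.19), Fosl1 (0.96), Tead4 (0.95), Tbx20 (0.89), Jun (0.82) and Nfatc2 (-1.03) had the largest changes. Without PE 0 of the 38 were called between siSlc25a26 and siNeg by edgeR, against 8.92% of all tested genes higher and 7.20% lower. Of the 38, 18 had an unadjusted p under 0.05, and 6221 of all 13829 tested genes passed the stricter adjusted p under 0.05. DESeq2 called 1 of the list and limma-voom 2, and edgeR called 2 without siNeg replicate 3. Under PE 1 was called higher and 2 lower, against 7.71% and 8.10% of all tested genes. These were Myocd (0.66, edgeR adjusted p = 0.000318), the immediate early gene Egr1 (-0.71, edgeR adjusted p = 7.60e-05) and Hopx, a homeodomain protein without DNA binding (-0.63, edgeR adjusted p = 0.000696). The ventricular factor Irx4 was the 1 gene of the list called for a difference between the PE effects (-0.69, edgeR adjusted p = 0.00890), with a range of 165 to 176 CPM after siNeg and 153 to 177 CPM after siNeg and PE, and of 192 to 210.0 CPM in siSlc25a26 and 101 to 144 CPM in siSlc25a26.PE. Without siSlc25a26.PE replicate 3 that difference was -0.57 and within the fold line, and without siNeg replicate 3 a total of 2 genes of the list were called. Of all genes tested for a difference between the PE effects, 2.18% were called higher and 3.34% lower.

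**Figure D4:**
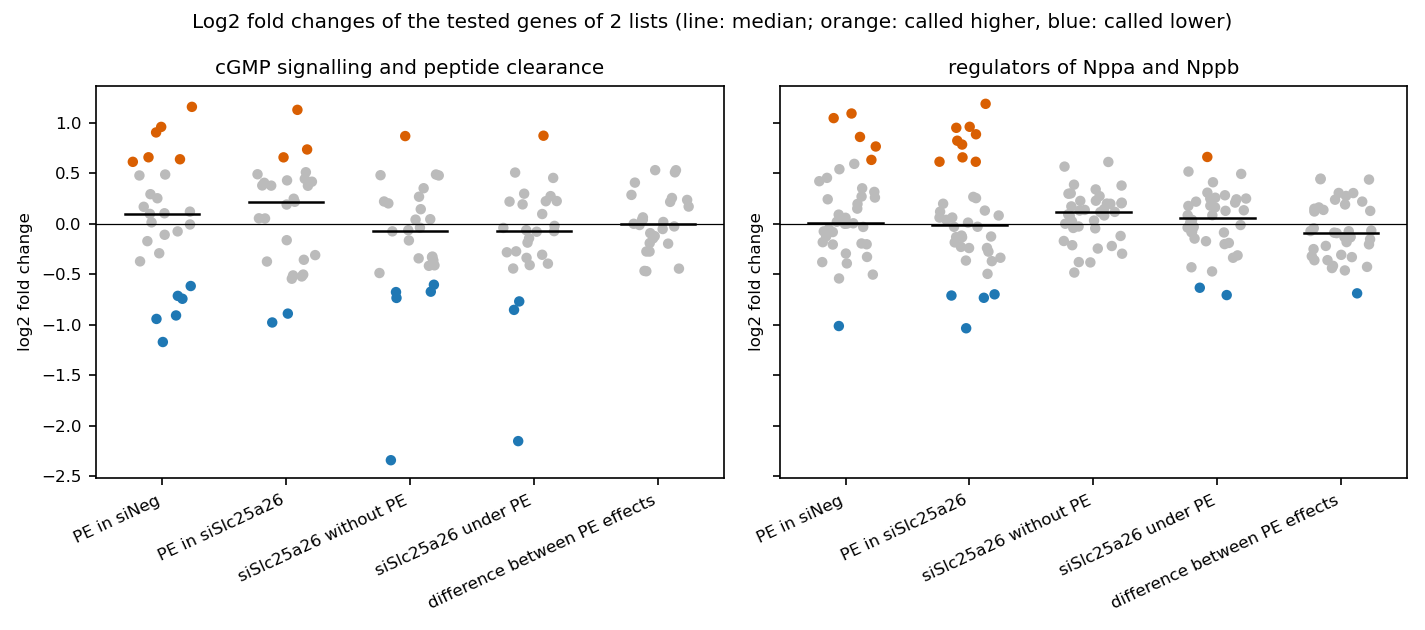
Log2 fold changes (vertical axis) of the tested genes of the 2 lists in the 5 comparisons, 1 point per gene with the median as a line. For PE in siNeg, 12 of 27 genes of cyclic GMP signalling and clearance and 6 of 38 regulators were called, against 2838 of all 13719 tested genes. The lowest points are Dpp4 at -2.34 and -2.15 in the comparisons of siSlc25a26 with siNeg.

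The genes whose levels ran most like those of each member over the 12 libraries were found by Pearson's r of log2 CPM among 13058 genes, as a description, since the libraries of a group share their treatment. Nppa was most like Lamb3 (r = 0.994), Enc1 (0.994) and Arhgap27 (0.993), and Nppb most like Mybpc2 (0.998), Rnd1 (0.995) and Sik1 (0.995). Corin was most like Nudt4 (0.988), Tgfbr3 (0.985) and Hsdl2 (0.981), and Furin most like Rexo1 (0.993), Zbtb7b (0.984) and Zswim4 (0.980). Npr1 was most like Myorg (0.982), Prelp (0.976) and Ncf1 (0.968), Npr2 most like Anks1a, St5 and Anxa11 (0.986, 0.986 and 0.982), Mme most like Erc1, Zbtb24 and Asap1 (0.942, 0.942 and 0.941), and Npr3 had the weakest likeness, with Fam198a, Osr2 and Ston2 (0.895, 0.893 and 0.884).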

How the data were processed

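The authors deposited expected counts per gene, estimated and not always whole (20.8% to 21.9% of values per library), and FPKM values (fragments per gene, divided by its length and by the library's size). Their processing notes name HISAT, Bowtie2 and Rnor_6.0. Counting program, annotation and strandedness are not given in the sources used here. Counts were rounded and tested with edgeR 4.0.16 in R 4.3.3 (TMM, filterByExpr, quasi-likelihood F-test, 6 libraries per comparison, 12 for the difference between PE effects). The planned design named counts, and the rounded expected counts were used. Standard errors came from the F statistic, and intervals are 1.96 standard errors to each side. Floors of 3 counts cover counting error only. No replicates looked alike within sampling noise (lowest chi-square 5.34 per gene). Alternatives used DESeq2 1.42.0 and limma 3.58.1, the latter also on log2(FPKM + 1) and log2(FPKM + 0.1), other filters and scalings, and left out each library. The procedure was tested on simulated data. Of the gene identifiers, 16962 (91.8%) matched RefSeq. Levels between genes were compared by FPKM only. Named genes are the members, Slc25a26, up to 6 called genes per list and comparison with the largest change, the markers (the single result of 1 is not reported here) and the 3 genes most like each member. The study describes another siRNA and other times of transfection and PE for its sequencing, and the labels were followed here. Members and lists were chosen with earlier results of these data known.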

Additional observations from a re-analysis of the deposited data

Results flagged for a closer look

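The interaction test of edgeR over 12 libraries gave 1581 of all 14097 tested genes an adjusted p under 0.05, and 778 of them exceeded the 1.5-fold line. The named genes of the pathway lists had been picked because they were called in these same data. Among the reported members, Slc25a26, these named genes and the markers, the effect of PE differed between the siRNAs for 26 genes, of which 15 exceeded the 1.5-fold line. Among the members these were Corin (log2 difference -1.42, adjusted p = 0.000996) and Npr2 (0.34, adjusted p = 0.0377), and the targeted gene Slc25a26 (1.06, adjusted p = 0.000466) rose more with PE in the libraries labelled siSlc25a26. Among the genes of clearance and regulation they were Pcsk6 (0.53, adjusted p = 0.00125), Irx4 (-0.69, adjusted p = 0.00890), Jun (0.45, adjusted p = 0.0425), Egr1 (-0.43, adjusted p = 0.0309) and Hopx (-0.44, adjusted p = 0.0394). Of these 8, Corin, Irx4 and Slc25a26 exceeded the fold line. The other 18 were markers. The mural markers Cnn1 (1.75), Cspg4 (1.10), Acta2 (0.88) and Pdgfrb (0.58), the fibroblast markers Fn1 (0.77), Col3a1 (0.51) and Col1a1 (0.41), the immune markers C1qa (1.05) and Csf1r (0.82) and the cardiomyocyte marker Myl2 (0.35) had log2 differences above 0. The atrial marker Gja5 (-1.03), the cardiomyocyte marker Pln (-0.47) and the interferon response genes Mx1 (-1.39), Ifit3 (-1.13), Ifit2 (-0.84), Rsad2 (-0.81), Ifih1 (-0.65) and Ddx58 (-0.28) had differences below 0. Their adjusted p ranged from 6.73e-05 for Cnn1 to 0.0490 for Pln.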

How the results depend on the processing

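Nppa and Nppb kept their direction and call in all 128 alternative values over the 4 comparisons, and Corin in all 53 over its 3 called comparisons. These totals, and the totals for all members and for the list genes, include the setting without a fold threshold. That setting uses the main fit, so a called gene cannot lose its call or direction in it. Over all members 651 of 678 alternative values stayed on their side of the call, 24 gained a call and 3 lost it (all Mme with PE in siNeg, -0.45 with FPKM + 1), and 0 called values changed sign. Of 585 such values for the named genes of the lists, 540 kept the call and 45 lost it. Without a fold threshold 5 of the 8 tested members were called lower with PE in siNeg, against 3329 of all 13719 tested genes. With PE in siSlc25a26 4 were lower, against 3585 of 13776. Without PE 4 were higher and 2 lower, against 3223 and 2998 of 13829. For the difference between PE effects 1 was higher, against 774 of 14097. With PE in siSlc25a26, 2 were called lower without a filter, 2 with FPKM + 1 and 4 with FPKM + 0.1. Of all tested genes, 1493 of 17870, 1463 of 11838 and 1893 of 11838 were called lower in these 3 settings. Leaving out each library gave 2 to 5 members called lower with PE in siNeg and 1 to 3 with PE in siSlc25a26. Over all genes, the same fits called 951 to 1138 lower with PE in siNeg, of 13851 to 13885 tested. With PE in siSlc25a26 they called 1346 to 1530 lower, of 13904 to 13963 tested. The ratio of Npr3 to Npr1 with PE in siNeg was 0.22 on the log2 scale with CPM in place of FPKM and -0.18 with FPKM. The causes were not tested.

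Over all genes, dropping the fold threshold raised the calls 2.03 to 2.79 times, and with FPKM + 1 they fell to 1565 of 2838 (PE in siNeg), 1249 of 2229 (siSlc25a26 without PE) and 1339 of 2162 (siSlc25a26 under PE). With FPKM + 1 and FPKM + 0.1 the median of all genes lay at -0.15 and -0.17 for PE in siSlc25a26 and at -0.13 and -0.15 for the difference between PE effects, and higher calls made up 27.4% and 26.5% in place of 49.2%, and 23.3% and 21.4% in place of 39.5%. For siSlc25a26 without PE the share was 66.3% with FPKM + 0.1 in place of 55.3%. Same-numbered libraries deviated together (r over 0.1) in 4 of 12 pairs, and r ran from -0.10 to 0.28 over the 12. The 4 pairs were replicates 1 and 3 for PE in siNeg (0.22 and 0.28) and for siSlc25a26 under PE (0.23 and 0.20). A library was most like its own number in 5 of 12 cases. These values do not settle whether the numbers pair the libraries, and the main fits used no pairing. With the replicate block the calls over all genes were 2969 for PE in siNeg and 947, against 778, for the difference between PE effects, 2 members were called higher and 3 lower with PE in siNeg, and Dpp4 with PE in siSlc25a26 was at -0.95 (adjusted p = 0.0680) and not called. Depth limits Nppc, at 11 counts or fewer in every library.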

Other observations

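The ratio of Nppa to Corin, its processing protease, was computed after the values were seen. By FPKM it was 8.66 in siNeg, 15.2 in siSlc25a26, 296 in siNeg.PE and 1281 in siSlc25a26.PE (geometric means of 3 libraries). Within each group the order of the libraries was the same for Nppa and Nppb, and the library lowest in both was the highest in Corin. That order was also noticed after the values were seen and has no test, and in siSlc25a26 the Corin libraries spread by 3.61% only.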
